A study of Mus musculus with 8 samples.

Results

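The nuclear-encoded subunits of oxidative phosphorylation were followed through 6 days of differentiation of mouse embryonic stem cells. Members were all array genes whose scanner name begins with Nduf and the letter a, b, c, s or v, with Uqcr, with Cox and a number from 4 to 8, or with Atp5, and the names Sdha to Sdhd. Names with Rik or -ps were left out, and each gene was read by its brightest probe. This gave 92 genes, of which 91 were among the 34736 genes with a value on all arrays, read by 134 probes in all. By role they fall into 36 subunits of complex I, 4 of complex II, 8 of complex III, 19 of complex IV and 15 of complex V, and 10 assembly or associated factors that share the names. Among the complex IV genes, 3 are muscle isoforms and 5 are isoforms or relatives typical of other tissues, so 74 genes are broadly expressed subunits.

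The study compared wild-type mouse embryonic stem cells with heterozygous cells, which carry the R141C mutation in 1 copy of Nkx2-5. Nkx2-5 is a transcription factor of early heart development. Each genotype was sampled undifferentiated at day 0 and after 6 days of differentiation through embryoid bodies, a culture meant to yield cardiac progenitors. Each of the 4 groups held 2 cultures, labelled as biological replicates, with 1 array each. The labels do not say whether each genotype is 1 clone, and genotype was taken from the labels without a check on the arrays.

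Complexes I to IV sit in the inner mitochondrial membrane, pass electrons from NADH and succinate to oxygen and pump protons, and complex V, the ATP synthase, makes ATP from the proton gradient. Most subunits come from nuclear genes that nearly all cells use. Complex IV, cytochrome c oxidase, is unusual in that several of its small subunits have 2 or more genes, with one copy used widely and others mainly in heart and skeletal muscle, lung or testis. Heart muscle cells depend heavily on this pathway, and stem cells are known to rely more on glycolysis.

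Promoter sequences are shown first for some of the members with a promoter entry. Ndufa4l2, Cox4i2, Cox6a2 and Cox8c, which gave calls described below, had no entry. Shown are Cox6a1 as a broadly expressed subunit, Cox7a1 as a muscle isoform, and Cox7b and Cox7b2 as a wide and a restricted copy. The associated genes Ndufaf4 and Atp5s follow. Each is the RefSeq window of 300 bases, from 250 before to 50 after the start of the gene, 5′ to 3′ on the gene's strand in GRCm38.p6. Cox6a1 lies at chr5:115348909-115349208 on the minus strand and Cox7a1 at chr7:30183921-30184220 on the plus strand. Cox7b lies at chrX:106015450-106015749 on the plus strand and Cox7b2 at chr5:71548156-71548455 on the minus strand. Ndufaf4 lies at chr4:24897833-24898132 and Atp5s, now named Dmac2l, at chr12:69724695-69724994, both on the plus strand. Capitals mark matches, on either strand, to GCGCATGC (the core bound by NRF1, a regulator of mitochondrial genes), AANATGGC (YY1), CCGGAAG (the ETS family), GGGCGG (Sp1), TATAAA (the TATA box) and CCAAT. Matches on opposite strands may overlap, as in the NRF1 core, and then run together.
Cox6a1: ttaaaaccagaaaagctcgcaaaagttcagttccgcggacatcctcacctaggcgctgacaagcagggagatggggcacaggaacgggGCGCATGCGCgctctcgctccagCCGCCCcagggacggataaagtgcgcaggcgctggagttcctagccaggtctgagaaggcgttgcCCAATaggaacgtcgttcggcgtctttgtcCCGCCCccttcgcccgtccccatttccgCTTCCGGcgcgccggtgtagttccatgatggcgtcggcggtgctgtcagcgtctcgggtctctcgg
Cox7a1: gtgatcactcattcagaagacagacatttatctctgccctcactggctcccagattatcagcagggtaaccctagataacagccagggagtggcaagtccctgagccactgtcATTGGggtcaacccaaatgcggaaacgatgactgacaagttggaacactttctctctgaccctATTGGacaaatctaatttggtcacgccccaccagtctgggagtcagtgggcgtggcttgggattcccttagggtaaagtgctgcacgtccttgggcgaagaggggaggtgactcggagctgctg
Cox7b: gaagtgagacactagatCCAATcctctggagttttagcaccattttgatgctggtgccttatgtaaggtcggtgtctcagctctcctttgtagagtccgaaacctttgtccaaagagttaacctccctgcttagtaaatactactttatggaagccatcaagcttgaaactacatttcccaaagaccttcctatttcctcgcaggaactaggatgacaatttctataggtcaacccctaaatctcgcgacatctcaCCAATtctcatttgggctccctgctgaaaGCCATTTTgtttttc
Cox7b2: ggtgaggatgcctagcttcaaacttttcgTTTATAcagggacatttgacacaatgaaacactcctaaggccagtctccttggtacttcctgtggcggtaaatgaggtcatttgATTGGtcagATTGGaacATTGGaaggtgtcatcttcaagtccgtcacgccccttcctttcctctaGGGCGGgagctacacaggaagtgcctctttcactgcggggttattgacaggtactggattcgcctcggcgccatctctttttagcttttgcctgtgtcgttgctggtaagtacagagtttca
Ndufaf4: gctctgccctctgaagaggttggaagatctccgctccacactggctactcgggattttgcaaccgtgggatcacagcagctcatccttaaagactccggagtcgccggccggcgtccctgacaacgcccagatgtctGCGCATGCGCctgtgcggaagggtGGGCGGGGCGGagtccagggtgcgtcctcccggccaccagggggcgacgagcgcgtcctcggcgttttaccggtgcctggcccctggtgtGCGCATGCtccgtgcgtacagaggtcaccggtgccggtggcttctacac
Atp5s: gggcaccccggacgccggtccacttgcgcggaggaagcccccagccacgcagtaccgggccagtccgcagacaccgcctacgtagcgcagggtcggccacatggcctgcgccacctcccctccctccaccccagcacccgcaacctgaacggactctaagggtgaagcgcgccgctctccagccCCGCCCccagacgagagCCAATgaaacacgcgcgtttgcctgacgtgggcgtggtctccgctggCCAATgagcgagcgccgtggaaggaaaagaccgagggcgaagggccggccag

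A promoter entry matched 75 of the 91 members looked up. Among broadly expressed subunits with an entry, 16.1% of 62 held the NRF1 core, 27.4% the YY1 core and 25.8% the ETS core, beside 3.05%, 6.96% and 9.93% of 27025 genes with an entry. The Sp1 core was found in 40.3% of the subunits and 38.2% of all genes, CCAAT in 41.9% and 41.1%, and TATAAA in 8.06% and 15.7%. The median number of CG dinucleotides was 19.5 in the subunits' windows and 8 in all windows. None of the 4 tissue isoforms with an entry (Cox7a1, Cox8b, Cox6b2 and Cox7b2) held the NRF1, YY1 or ETS core. These are letter matches, given as a description with no test.

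**Figure D1:**
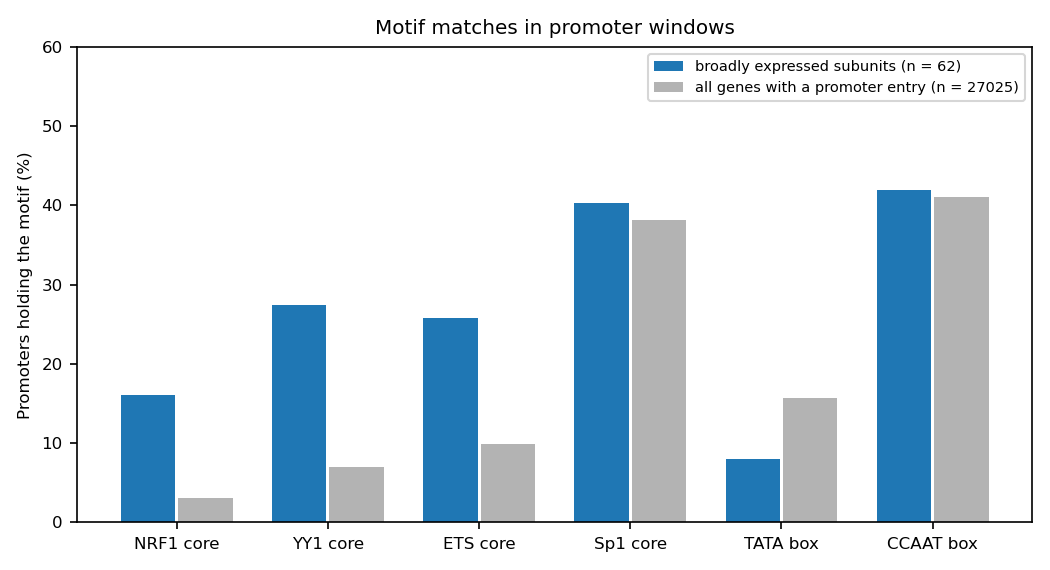
Share of genes (%) with each motif in any of their promoter windows of 300 bases, for 62 broadly expressed subunits (blue bars) and all 27025 genes with an entry (grey bars). The blue bars stand above the grey ones for the NRF1, YY1 and ETS cores, near them for Sp1 and CCAAT, and below for TATAAA.

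Signals are given as log2 of the scanner's processed signal minus the same array's 75th percentile, so 0 is a fairly bright probe and a difference of 1 is 2-fold. Probes differ in how strongly they bind, so a gene's value is compared only with its own value on other arrays. Differences were tested with limma in one model of the 4 group means over 25892 genes, and a gene was called at a Benjamini-Hochberg adjusted p under 0.05. Of the 92 members, 90 were tested. Atp5o, a stalk subunit of complex V, had its only probe flagged by the scanner on the wild-type day 0 replicate 1 array, and the muscle isoform Cox8b was not well above background on any array. Over the tested members, 11.1% of wild-type and 14.4% of R141C day 0 values differed by more than 0.5 between replicates, and 2.22% and 7.78% at day 6, beside 30.5%, 31.3%, 14.1% and 36.9% of all genes. Arrays had 55.7% to 70.5% of probes well above background. Day and genotype match column and row on the single slide, so position and group cannot be told apart.

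Marker genes were read to see which cell types the cultures held. In wild type, 10 of 12 tested markers of undifferentiated stem cells fell by day 6 and none rose, and 11 of 18 heart muscle markers rose and none fell. All 10 red blood cell markers, 6 of 8 endothelial markers and 6 of 10 visceral endoderm markers also rose, with 2 visceral endoderm markers lower, and 4 of 7 neural markers fell. In R141C, 9 stem cell markers fell and 1 rose, 3 heart muscle markers rose, all 10 red blood cell, 5 endothelial and 8 visceral endoderm markers rose, and 5 neural markers fell. Of all tested genes, 11% rose and 12.9% fell in wild type, and 7.6% rose and 8.03% fell in R141C. The 3 of 18 heart muscle markers that rose in R141C stand beside 7.6% of all tested genes called higher there and 15.6% called in either direction. On each day 0 array 3 red blood cell, 2 to 3 endothelial and 2 to 4 visceral endoderm markers were not well above background. A call for a marker at background at day 0 could be a rise only. Markers of several cell types were therefore present at day 6, and in bulk RNA fewer cells of a type and less RNA per cell cannot be told apart.

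In wild type the broadly expressed subunits of all 5 complexes gave no call between the days. From day 0 to day 6 in wild type, 0 of the 73 tested passed the threshold in limma in either direction, whereas 24% of all tested genes did, 11% higher and 12.9% lower. At an unadjusted p under 0.05 the count was 5 of 73. The count stayed at 0 in most other settings, but it was 1 with quantile scaling or the authors' deposited values (Atp5g1), 4 with normexp background (Atp5g1, Cox5a, Ndufc1 and Ndufv3) and 4 with a trended and robust variance (Atp5l, Ndufb6, Ndufv3 and Uqcrc1). Their median difference was -0.10 beside -0.12 for all tested genes, and 66 of the 73 lay within 0.5 of 0, compared with 49.3% of all genes. Scaling each array to its median instead moved the median of all genes to 0.0044. In both of these scalings, the median of the 90 tested members lay 0.0136 above that of all genes. Both shift every gene of an array alike. The members' median lay 0.0532 above with quantile scaling and 0.0396 above with normexp background. Without the filter on dim probes, which adds Cox8b to the members, it was -0.1289 relative to all genes. The median of all 34736 genes was then 0.0283, and that of the members -0.1006. The medians of complexes I, II, III and V, negative as given here, were positive under some of the other scalings, and that of complex IV was not. The standard errors of these differences ran from 0.18 to 0.38, and for 62 of the 73 subunits the 95% interval lay within a 2-fold change either way, which held for 36% of all genes. The subunits are read by bright probes, and among the 3305 tested genes with a mean signal of at least 4, 152 were called higher and 232 lower. The count was 0 of the 70 members in that range.

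Atp5l, Cox5a, Ndufa6, Ndufc1, Ndufs1, Uqcrc1, Cox7c, Atp5g1 to Atp5g3 and Cox7a2l were picked out after their values were seen, and the other members named follow a rule given with the methods. Complex I, which takes electrons from NADH, had a median difference of -0.09 over its 36 subunits, with a range from -0.83 to 0.56. Its core subunits carry the flavin and iron-sulfur centres. The median of the 7 core subunits was -0.22 and that of the 29 accessory ones -0.06. Ndufs1, the largest iron-sulfur subunit, read 5.37 and 6.06 on the wild-type day 0 arrays and 4.77 and 4.99 at day 6. The groups did not overlap, but the day 0 cultures differed by almost as much, and the difference of -0.83 ± 0.38 (SE) had an adjusted p of 0.16. Ndufs5, an accessory subunit of the membrane arm, moved least, from 5.61 and 5.64 at day 0 to 5.54 and 5.65 at day 6.

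Complex II, succinate dehydrogenase, is also an enzyme of the citric acid cycle and is built only from nuclear-encoded subunits. The flavoprotein Sdha read 5.13 and 5.34 at day 0 and 5.17 and 5.23 at day 6 in wild type, and 5.42, 5.15, 5.26 and 5.20 on the 4 R141C arrays in the same order. The iron-sulfur subunit Sdhb read 5.83 and 5.90 at day 0 and 6.01 and 6.14 at day 6, a difference of 0.21 ± 0.20 (SE, adjusted p = 0.50 in limma). For the membrane anchors, the differences were -0.02 ± 0.32 for Sdhc and -0.13 ± 0.18 for Sdhd. No complex II subunit passed the test in either genotype, and the 2 Sdhc probes gave differences 0.55 apart.

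Complex III, the cytochrome bc1 complex, passes electrons from ubiquinol to cytochrome c. Over its 8 members the median was -0.09. Uqcrc1, a core protein of the matrix side, had the largest fall among them, from 5.12 and 5.63 at day 0 to 4.48 and 4.84 at day 6 in wild type. The groups did not overlap, and the difference of -0.71 ± 0.25 (SE) had an adjusted p of 0.084. Uqcrq moved by -0.03 ± 0.24. The catalytic cytochrome c1 gene, Cyc1, falls outside the naming rule, and it did pass the test, going from 6.20 and 6.47 to 5.47 and 5.46, a fall by 0.87 with an adjusted p of 0.025 in limma.

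Complex IV hands the electrons to oxygen. Its 11 broadly expressed subunits all had a negative difference in wild type, from -0.44 for Cox7c to -0.04 for Cox6a1. Their median was -0.15, beside -0.12 for all tested genes. No single one passed the test, and between 1 and 3 of the 11 turned positive when the arrays were scaled in other ways. The median itself stayed below 0 in each of the 5 scalings tried, from -0.18 to -0.03. In the same scalings the median of all tested genes ran from -0.12 to 0.0044. Cox4i1, the regulatory subunit that has Cox4i2 as its counterpart, read 7.30 and 7.01 at day 0 and 7.04 and 6.96 at day 6. Cox6a1 read 7.84 and 7.93 at day 0 and 7.73 and 7.95 at day 6. For Cox4i1 and Cox6a1 the arrays of both days overlapped. Cox6b1 read 3.85 and 4.06 at day 0 and 3.77 and 3.88 at day 6.

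Complex V had a median difference of -0.04 over 14 tested subunits, -0.06 in the catalytic F1 head and -0.02 in the membrane and stalk part. The beta subunit Atp5b read 7.83 and 7.80 at day 0 and 7.68 and 7.83 at day 6 in wild type. Atp5k moved least, by -0.02 ± 0.19. The ring that turns with the protons is made of subunit c, for which 3 genes code the same mature protein. One of them, Atp5g1, read 7.39 and 7.26 at day 0 and 6.54 and 6.79 at day 6 in wild type, and 7.82 and 7.22 against 6.78 and 6.47 in R141C. Groups did not overlap in either genotype, with differences of -0.66 ± 0.26 (adjusted p = 0.12) and -0.89 ± 0.26 (adjusted p = 0.068). The other copies were at 0.18 ± 0.20 (Atp5g2) and 0.15 ± 0.21 (Atp5g3) in wild type, so neither they nor Atp5g1 passed the test. Atp5g1 did pass it in both genotypes with quantile scaling, with normexp background and in the authors' deposited values. Atp5o, not tested, read 5.77 on the unflagged day 0 array and 5.25 and 5.28 at day 6.

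**Figure D2:**
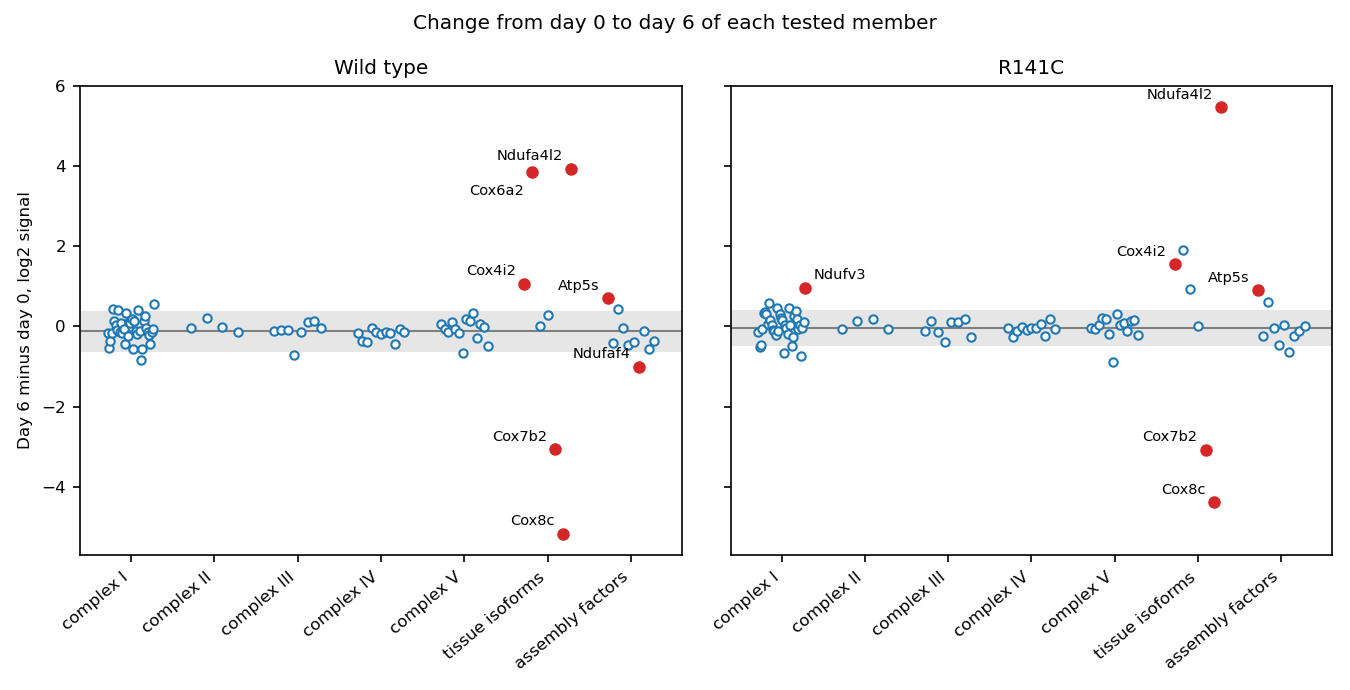
Day 6 minus day 0 (log2 signal) for each tested member, by complex, in wild type (left) and R141C (right). Red points passed the test, open points did not, the grey line is the median of all tested genes and the grey band its middle 50%. The broadly expressed subunits lie in or near the band, while Ndufa4l2, Cox4i2, Cox7b2 and Cox8c stand outside it in both genotypes.

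Several tissue isoforms of complex IV moved more. Of the 7 tested in wild type, 3 rose (Ndufa4l2, Cox6a2 and Cox4i2) and 2 fell (Cox8c and Cox7b2). Cox6b2 and Cox7a1 differed by 0.01 and 0.29 without a call. With the assembly and associated factors, 4 of 90 members rose and 3 fell, or 7.78%, beside 24% of all tested genes. The members' called share was below the background, and the calls lay outside the broadly expressed subunits.

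Ndufa4l2 is a relative of Ndufa4 that hypoxia induces. Its probe lies at chr10:126954149-126954208 in mm9. It read -2.43 and -1.27 on the wild-type and -3.36 and -2.81 on the R141C day 0 arrays. At day 6 it read 2.47 and 1.70 in wild type and 2.45 and 2.32 in R141C. Every day 6 culture was above every day 0 culture. The rise was 15.3-fold in wild type (3.94 ± 0.44 SE, adjusted p = 0.0020) and 44.4-fold in R141C (5.47 ± 0.44, adjusted p = 0.0012, limma). Ndufa4 itself, now assigned to complex IV, read 5.57 and 5.73 at day 0 and 5.42 and 5.61 at day 6 in wild type, a difference of -0.14 ± 0.19.

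Cox4i2 is the copy of Cox4i1 known from lung and placenta. Its probe lies at chr2:152590711-152590770 in mm9. It read -1.19 and -0.68 at day 0 and 0.36 and -0.10 at day 6 in wild type, and -0.85 and -1.08 against 0.71 and 0.47 in R141C. The days did not overlap in either genotype. It rose 2.09-fold in wild type (1.06 ± 0.27, adjusted p = 0.032) and 2.94-fold in R141C (1.56 ± 0.27, adjusted p = 0.013). The wild-type call was lost when wild-type day 0 replicate 1 or either wild-type day 6 array was left out, with differences of 0.81, 0.83 and 1.30. It was also lost when only the arrays compared were fitted. Where a fit leaves 1 culture in a group, here and below, that culture is taken to vary like the other groups. The R141C call was lost without either R141C day 0 array or without R141C day 6 replicate 1, with differences of 1.67, 1.44 and 1.44. Several marker lists rose along with both genes. The summed linear signal of the endothelial list was 4.87 to 6.09 on the day 0 arrays and 14.3 to 20.2 at day 6. The red blood cell list went from 2.49 to 3.94 at day 0 to 266 to 954 at day 6. The visceral endoderm list went from 2.93 to 6.42 at day 0 to 52.3 to 125 at day 6. The heart muscle list rose to 405 and 525 in wild type but read 16.8 on R141C day 6 replicate 1. The part of these cell types in the rise of Ndufa4l2 and Cox4i2 was not tested.

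Cox6a2 is the heart and skeletal muscle copy of Cox6a1. Its probe lies at chr7:135349160-135349219 in mm9. In wild type it read -4.66 and -5.0 at day 0 and -1.06 and -0.90 at day 6, a 14.4-fold rise (3.85 ± 1.06, adjusted p = 0.041, limma). In R141C it read -5.33 and -5.28 at day 0 and -5.29 and -1.48 at day 6, a difference of 1.92 ± 1.06 with an adjusted p of 0.28. At day 6, then, both wild-type cultures and R141C replicate 2 were high, and R141C replicate 1 was at the day 0 level and not well above background. The R141C value rested on which culture was used: leaving out replicate 1 gave 3.82 (adjusted p = 0.0024), and leaving out replicate 2, so that the only value at day 6 was at background, gave an adjusted p of 0.98. The wild-type call was lost when any 1 of the 4 wild-type or 2 R141C day 0 arrays was left out, with the difference between 3.68 and 4.02. It was kept without either R141C day 6 array, and in limma with only the wild-type arrays fitted (adjusted p = 0.0039). The shared estimate of the spread includes the R141C day 6 cultures. Their SD was 2.69, beside 0.24 and 0.11 in wild type at day 0 and day 6. Outside the members, the 5 genes whose signals over the 8 arrays were most like those of Cox6a2 were Vtn, Rassf5, Myl2, Serpina1c and Dact1, with Pearson correlations from 0.985 to 0.993, given as a description.

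Markers of heart muscle moved with Cox6a2 to differing degrees. For most of them the Pearson correlation with Cox6a2 over the arrays lay between 0.78 (Myh6) and 0.99 (Myl2), given as a description. It was lower for Nppb (0.39), Tnni3 (0.45), Actn2 (0.52), Atp2a2 (0.55) and Ttn (0.58). The summed linear signal of the 18 tested markers was 23.0 and 10.47 on the wild-type day 0 arrays, 17.3 and 44.4 on the R141C day 0 arrays, and 405 and 525 at day 6 in wild type. On the R141C day 6 arrays it was 16.8 for replicate 1 and 175 for replicate 2. Of the 18 markers, 17 were lower in replicate 1 than in replicate 2, with a median difference of -3.29, and 2 of the 18 were not well above background there. All 10 red blood cell markers were higher in replicate 1 than in replicate 2, so the arrays did not differ in the same direction for all cell types. How far the number of heart muscle cells accounts for the Cox6a2 signal was not tested.

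**Figure D3:**
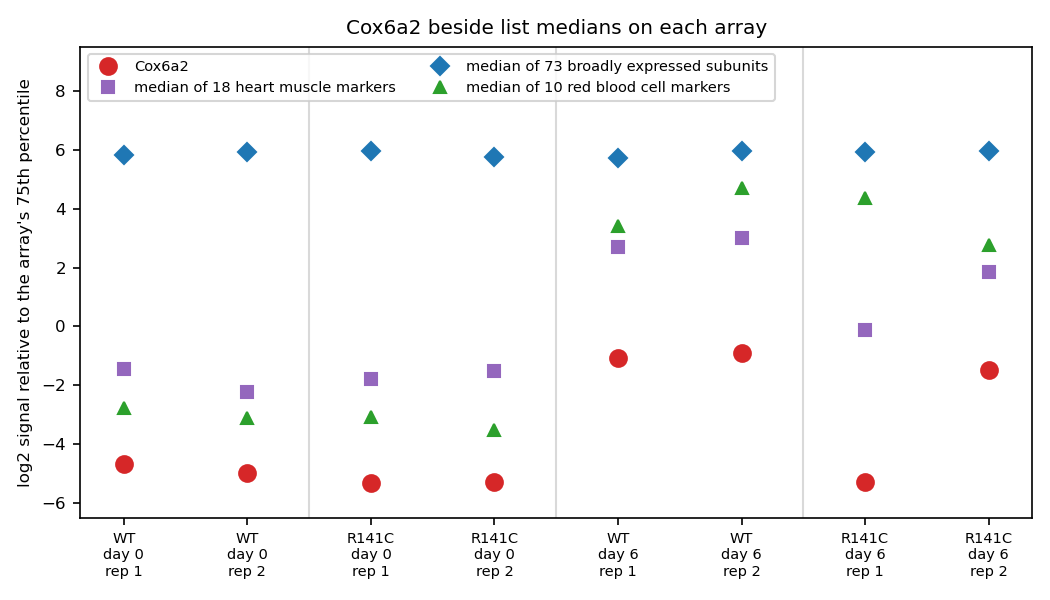
Log2 signal on each of the 8 arrays for Cox6a2 (red circles) and the median of 3 lists. Levels of different probes cannot be compared, only their course over the arrays: Cox6a2 and the heart muscle median are both low in R141C day 6 replicate 1 (-5.29 and -0.13) and high in replicate 2 (-1.48 and 1.86), while the median of 73 broadly expressed subunits stays between 5.74 and 5.96 on all 8 arrays.

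The other muscle isoforms gave no call. Cox7a1, the muscle copy of Cox7a2, was well above background on all arrays already at day 0. It read 2.70 and 2.97 at day 0 and 3.11 and 3.15 at day 6 in wild type, and 2.90 and 2.41 against 2.53 and 2.82 in R141C. The differences were 0.29 ± 0.24 (adjusted p = 0.43) and 0.02 ± 0.24 (adjusted p = 0.97), and Cox7a2 differed by -0.14 ± 0.19 in wild type. Cox8b, the muscle copy of Cox8a in rodents, read between -7.80 and -5.51 on the 8 arrays without being well above background on any, so no level or change can be given. Cox8a read 7.09 and 7.28 at day 0 and 7.0 and 7.24 at day 6 in wild type.

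Cox8c and Cox7b2, known from testis, were higher at day 0 than at day 6. Both entered the test through their day 0 arrays alone, so a call for them could be in that direction only. Cox8c, whose probe lies at chr12:104138678-104138736 in mm9, read -2.05 and -2.16 in wild type and -2.65 and -3.78 in R141C at day 0. At day 6 all 4 arrays lay between -7.74 and -7.05, not well above background. The fall was at least 8.66-fold in wild type (adjusted p = 5.9e-04) and at least 5.00-fold in R141C (adjusted p = 0.0015), taking the dimmest probe well above background on each array as the bound. Cox7b2, with a probe across exons at chr5:71834459-71894699 in mm9, read -2.45 and -4.06 in wild type and -3.58 and -3.48 in R141C at day 0. It read -5.62, -7.03, -7.46 and -5.75 at day 6, again not well above background. The fall was at least 3.92-fold in wild type (adjusted p = 0.031) and at least 4.02-fold in R141C (adjusted p = 0.041). The wild-type call of Cox7b2 ended when replicate 1 of wild-type day 0 was left out (adjusted p = 0.12), and without either wild-type day 6 array (0.053 and 0.16) and without either R141C day 0 array (0.052). It was also lost with quantile scaling (0.052) and when only the arrays compared were fitted (0.057). The R141C call was lost without either R141C day 0 array (0.15 and 0.13), without R141C day 6 replicate 1 (0.15) and without either wild-type day 6 array (0.053). It was also lost with quantile scaling (0.070), normexp background (0.069), no filter (0.057) and the replicate block (0.058). The Cox8c calls were kept in every setting tried that tested the gene. Cox7b, the wide copy, differed by -0.17 ± 0.20 in wild type and 0.07 ± 0.20 in R141C.

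Cox6b2, also a testis isoform, gave no call. It read 0.97 and 2.71 at day 0 and 1.95 and 1.74 at day 6 in wild type, with a difference of 0.01 ± 0.53, and 0.64 and 1.22 against 1.91 and 1.80 in R141C, with 0.93 ± 0.53 (adjusted p = 0.29). The day 0 wild-type cultures differed by 1.74, the widest replicate gap of any tested member in that group. Among carriers outside the members, picked out after their values were seen, the testis-type adenine nucleotide carrier Slc25a31 and the testis cytochrome c Cyct fell as well. Slc25a31 fell at least 3.39-fold in wild type (adjusted p = 7.4e-04), and Cyct went from 0.0048 and -0.79 to -3.08 and -3.41 (adjusted p = 0.010). Slc25a31 was not well above background on the wild-type day 6 arrays, so its call there could be a fall only. The stem cell list had a median of 4.24 and 5.03 on the wild-type day 0 arrays and 1.42 and 1.26 at day 6, and its part in these falls was not tested.

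**Figure D4:**
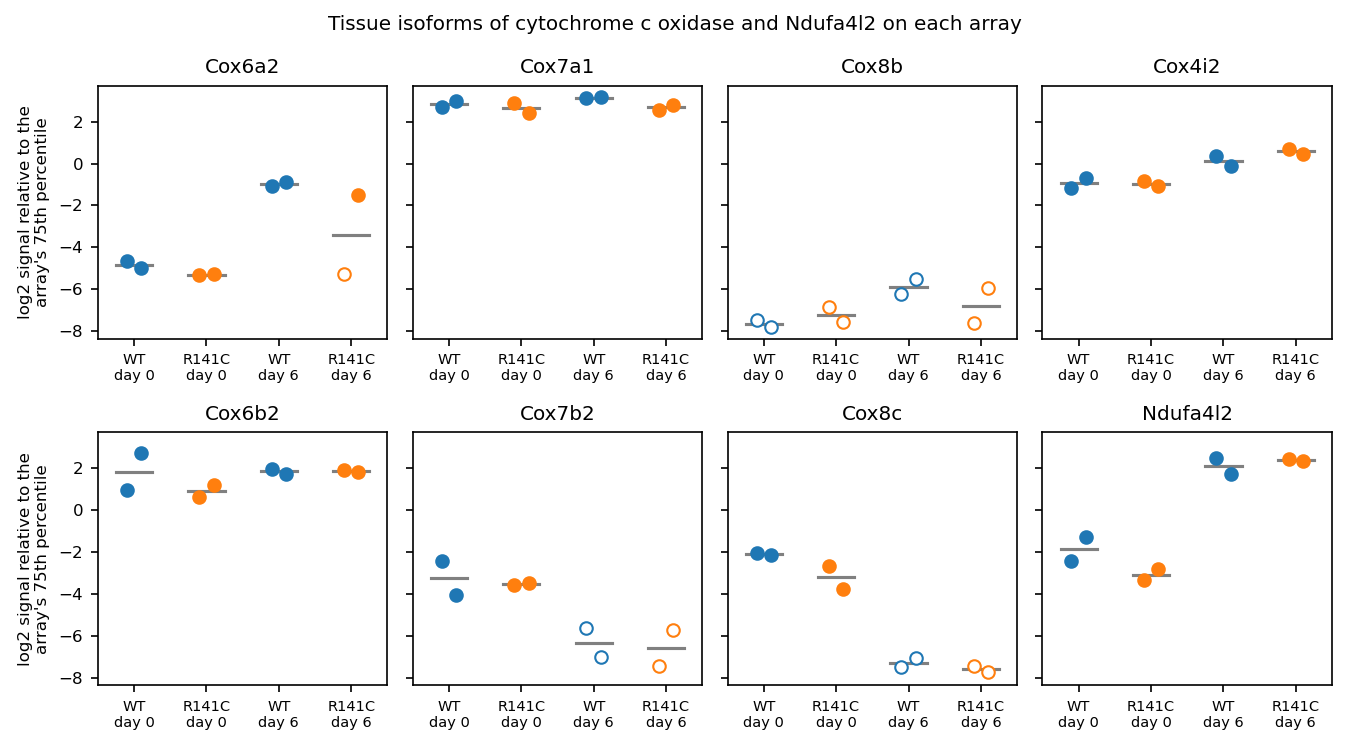
Log2 signal of the 8 tissue isoforms on each array in the 4 groups, blue for wild type and orange for R141C. Grey bars are means of 2 cultures, filled points were well above background and open points were not. Cox7b2 and Cox8c have filled points at day 0 only, Ndufa4l2 and Cox4i2 are higher at day 6 in both genotypes, and the 2 R141C day 6 points of Cox6a2 lie far apart.

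Among the 10 assembly and associated factors, 8 had a negative difference in wild type, with a median of -0.37, and 2 passed the test. Between 6 and 8 were negative across the 5 scalings. Ndufaf4, which helps build the early parts of complex I, read 3.40 and 3.67 at day 0 and 2.46 and 2.60 at day 6 in wild type, a 2.0-fold fall (-1.0 ± 0.22, adjusted p = 0.019). In R141C it read 3.38 and 3.14 against 2.49 and 2.77, a difference of -0.63 ± 0.22 (adjusted p = 0.099). The days did not overlap in either genotype. The call in wild type was lost without day 0 replicate 2 or without either day 6 array, with differences of -0.87, -0.93 and -1.07. Ndufaf1 moved least, by -0.03. Atp5s was named for complex V and is now Dmac2l, after its likeness to an assembly factor of complex I. It read -1.88 and -1.93 at day 0 and -1.14 and -1.25 at day 6 in wild type. It rose 1.63-fold there (0.71 ± 0.20, adjusted p = 0.042) and 1.87-fold in R141C (0.90 ± 0.20, adjusted p = 0.026). The wild-type call was lost without any 1 of the 4 wild-type or 2 R141C day 0 arrays, with differences from 0.65 to 0.76. It was also lost with the replicate block (adjusted p = 0.056), with a trended and robust variance (0.055) and with no filter on dim probes (0.051). The R141C call was lost without either R141C day 0 array (0.92 and 0.88), R141C day 6 replicate 2 (0.74) or either wild-type day 6 array (0.90). That call was also lost when only the arrays compared were fitted. Cox7a2l, a factor of respiratory supercomplexes, was at 0.44 ± 0.18 in wild type (adjusted p = 0.13) and 0.60 ± 0.18 in R141C (adjusted p = 0.068).

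In R141C cells, day 6 against day 0 gave 4 members higher (Ndufa4l2, Cox4i2, Ndufv3 and Atp5s) and 2 lower (Cox8c and Cox7b2). This was 6.67% of 90, where 15.6% of all tested genes were called, 7.6% higher and 8.03% lower. Both day comparisons use their own arrays, but they share one estimate of the spread. Ndufv3 was the single call among 73 broadly expressed subunits. In other settings the count was 2 with quantile scaling or the deposited values (with Atp5g1), 3 with normexp background (with Atp5g1 and Ndufa6), 4 with a trended and robust variance (with Atp5g1, Ndufa6 and Ndufb6), and 0 with the mean of a gene's probes or when only the arrays compared were fitted. It is a small accessory subunit of the complex I flavoprotein part and read 5.64 and 5.68 at day 0 and 6.59 and 6.66 at day 6 in R141C (0.96 ± 0.20, adjusted p = 0.024). In wild type it read 5.69 and 6.07 against 6.39 and 6.49 (0.56 ± 0.20, adjusted p = 0.093). Its 3 probes disagreed: in R141C they gave 0.96, 1.13 and -0.40, and with their mean the difference was 0.57 and the call was lost (adjusted p = 0.15). It was also lost without any 1 of the 4 R141C arrays, with differences from 0.93 to 1.0, or without either wild-type day 6 array (0.96). In 27 of the 29 members with several well-measured probes the probes agreed within 0.5 in wild type.

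Other genes of the pathway were taken from lists outside the naming rule, and their counts are to be read beside the 24% of all tested genes called in wild type and the 15.6% in R141C. In wild type, 1 of 6 further complex I genes fell (Ecsit, an assembly factor, by 1.04), 0 of 4 complex II assembly genes were called, and 2 of 7 complex III genes fell (Cyc1 and Uqcc1). Of 19 complex IV assembly genes, 2 fell: Cox17, a copper chaperone, and Cox18, which inserts a mitochondrially encoded subunit. None of 4 complex V assembly genes was called. Of 16 electron and nucleotide carriers, 4 fell (Slc25a31, Cyct, Pdss1 and, named after its values were seen, Slc25a5). In R141C these lists had 0 genes higher and 4 lower (Ecsit, Cyc1, Slc25a31 and Cyct).

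Probes for the 13 subunits that mitochondrial DNA encodes gave 0 higher and 2 lower in wild type, mt-Nd2 at -1.07 ± 0.26 and mt-Nd4l at -1.28 ± 0.32. Of the 13, 11 had a negative difference under this scaling, with a median of -0.45, and none was called in R141C, where the median was -0.29. The array design places several of these probes in a nuclear copy of mitochondrial DNA on chromosome 1, so they may read both. The share called in wild type was 22.2% in the tricarboxylic acid cycle and 38.9% in fatty acid oxidation, beside the 24% of all tested genes. In the cycle, which feeds the chain with electrons, 1 of 18 genes rose in wild type (Idh2, by 1.24) and 3 fell (Idh3a, Pdha1 and Pdhb). In fatty acid oxidation 3 of 18 rose and 4 fell: the muscle carnitine palmitoyltransferase Cpt1b rose by 1.90, and the liver type Cpt1a fell by 3.65. In R141C, 1 cycle gene rose and 2 fell, and 4 oxidation genes rose and 1 fell.

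Of 19 regulators of mitochondrial biogenesis, 2 rose in wild type and 3 fell, a share of 26.3% that is close to the 24% of all tested genes. Esrrb, a nuclear receptor of stem cells that is also in the stem cell list, fell from 5.28 and 6.51 to 0.89 and 1.11. Its relative Esrrg read -6.45 and -6.69 at day 0, not well above background, and -1.40 and -1.44 at day 6, a rise of at least 28.4-fold (adjusted p = 0.0040). Ppargc1a, the coactivator PGC-1 alpha, rose at least 4.45-fold (adjusted p = 0.0085). On the wild-type day 0 arrays neither Esrrg nor Ppargc1a was well above background, so a call for them there could be a rise only. On the R141C day 6 arrays Esrrg read -5.32 and -2.85 and Ppargc1a -7.55 and -5.47, with replicate 1 the lower for both, as for Cox6a2 and the heart muscle markers. In R141C neither passed the test (adjusted p = 0.15 and 0.49 in limma), and no fold is given since part of these values lie at background.

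R141C did not differ from wild type in any member at either day by the adjusted test. At day 6, 0.0657% of all tested genes were called (17 of 25892), and 8.53% had an unadjusted p under 0.05. Among the members 0 of 90 were called and 1 had an unadjusted p under 0.05. That gene was Ndufaf6, a complex I assembly factor, which read 2.28 and 2.19 in wild type and 2.90 and 2.78 in R141C (0.61 ± 0.18, adjusted p = 0.42 in limma). Atp5s (0.37 ± 0.20) and Atp5g2 (0.35 ± 0.20) had the next smallest p-values among the members higher in R141C at day 6. At day 0, 0% of all genes were called and 4.5% had an unadjusted p under 0.05. The members with an unadjusted p under 0.05 were Ndufa4l2 (-1.23 ± 0.44) and Cox8c (-1.11 ± 0.38). The next lower member was Cox6b2 (-0.91 ± 0.53). Among members higher in R141C at day 0, the smallest p-values were those of Atp5b (0.31 ± 0.20), Ndufs8 (0.34 ± 0.25) and Atp5h (0.26 ± 0.20). For the broadly expressed subunits, the 95% interval of the genotype difference lay within a 2-fold change either way in 67 of 73 at day 6 and 71 of 73 at day 0.

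Among members lower in R141C, the smallest p-values at day 6 were those of the muscle isoforms Cox6a2 and Cox7a1 and of Ndufb6 (-0.31 ± 0.21). Cox6a2 differed by -2.40 ± 1.06 (adjusted p = 0.61) between the genotypes, R141C minus wild type, and Cox7a1 by -0.46 ± 0.24 (adjusted p = 0.67). For Cox7a1 both R141C cultures, at 2.53 and 2.82, were below both wild-type cultures, at 3.11 and 3.15. Cox6a2 was called lower in R141C with replicate 1, where its probe was not well above background, as the only R141C culture (adjusted p = 0.016). With replicate 2 as the only one the difference was -0.50 (adjusted p = 0.94). Cox6a2 was the one member called in that comparison in any setting tried. All 18 heart muscle markers were lower in R141C at day 6, 13 with an unadjusted p under 0.05 and none by the adjusted test.

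Across the members, 74 of 90 differences between the genotypes at day 6 were positive, with a median of 0.12 beside 0.07 for all tested genes and 0.15 for the 3305 genes with bright probes. This sign rested on the scaling of the arrays. With quantile scaling the median was -0.0015, with a median shift 0.038, with normexp background -0.0118 and in the authors' deposited values -0.021. The change of the genotype effect between the days, tested as an interaction, called 0% of all genes, with 5.64% at an unadjusted p under 0.05, and none of the members. The smallest p among them was for Ndufa4l2, with 1.53 ± 0.63 (adjusted p = 0.88 in limma).

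**Figure D5:**
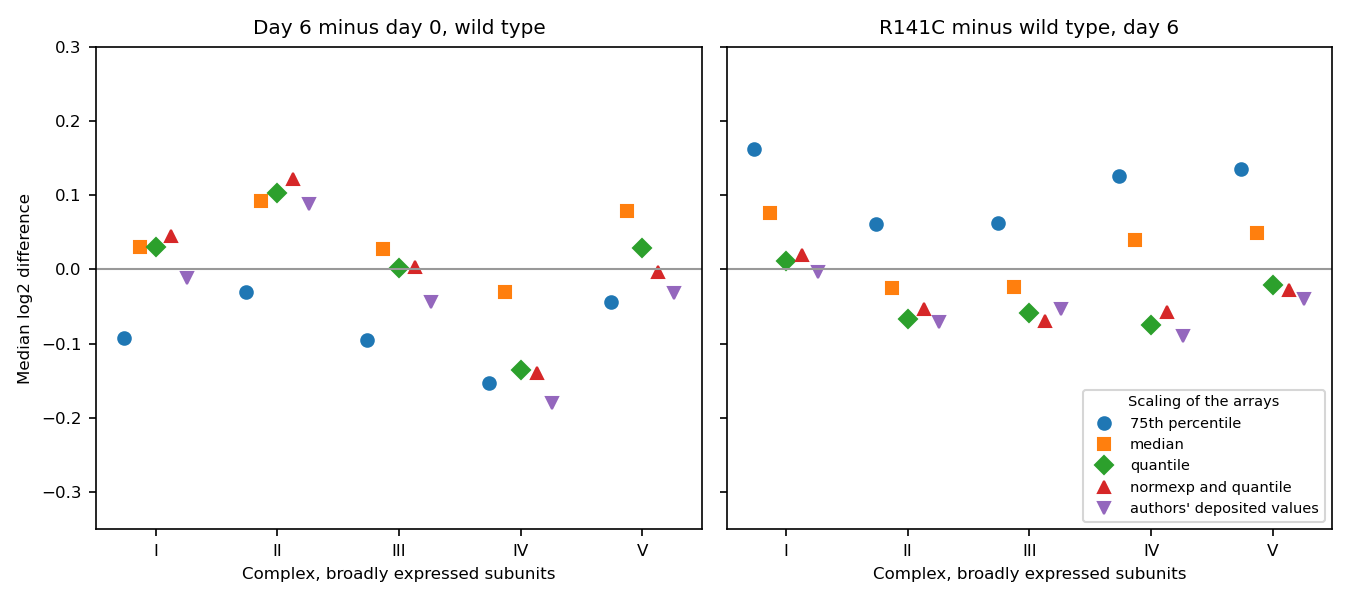
Median log2 difference of the broadly expressed subunits of complexes I to V under 5 scalings of the arrays, for day 6 minus day 0 in wild type (left) and R141C minus wild type at day 6 (right). In the left panel complex IV is below 0 under every scaling. In the right panel the medians scaled to the 75th percentile lie above 0 for every complex (0.06 to 0.16), and each other scaling gives lower ones, many of them below 0.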

How the data were processed

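RNA from 8 cultures, 2 for each genotype and day, was measured on 1-colour Agilent arrays, all on 1 slide. The authors deposited scanner output; per the file headers, Feature Extraction 11.5.1.1 (10.5.1.1 in the submitters' processing notes) gave processed signals in intensity units, with background subtracted within each array. The same deposited files hold flags for outliers, saturation and signal above background, each scored 0 or 1. The authors also deposited a value table of log2 values with nearly equal quantiles in every column, as quantile normalization gives, judged from the values. Its column medians are 8.99 to 9.04. How it was centred and filtered is not given in the sources used here, and it served as an alternative.

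Spots that were flagged as outliers were left out, which removed 98 of 55681 probes. The log2 signal minus the array's 75th percentile was analysed, with 1 probe for each gene, the one with the highest mean signal. A gene was tested if its probe was well above background in both cultures of 1 or more groups. The 25892 such genes were fitted by limma 3.58.1 (R 4.3.3), with 4 group means in one model and Benjamini-Hochberg adjustment over all of them. The residual degrees of freedom were 4 and the prior 2.70. A fall or rise against a group not well above background is given as a bound, from each array's dimmest probe above background. Precision is limited by the number of arrays, and p-values measure the spread between cultures whose independence is known only from the labels. The fit was tested on simulated data.

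Members and gene lists were chosen with earlier results of these data known. Named are the tissue isoforms of complex IV with their wide copies, the Sdh subunits, called members (up to 3 a direction in each complex), the member with the smallest wild-type difference in each complex, and the 3 smallest p-values in each direction where a genotype comparison had no call. From each other list up to 3 called genes with the largest change are named. Likeness to Cox8b was not computed, since its probe was not above background. Alternatives were other scalings, background correction, filters, variance settings, probe averaging, the replicate block and leaving out each array. Replicate numbers were not taken as pairs, since deviations of same-numbered cultures correlated between -0.14 and 0.08 in most pairs of groups. Between R141C day 0 and R141C day 6 the correlation was 0.34, and pairing there entered only through the replicate block. Names of 2029 probes were updated through RefSeq (GRCm38.p6). Probe positions are in mm9, per the file headers.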

Additional observations from a re-analysis of the deposited data

How the results depend on the processing

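Ndufa4l2 and Cox8c kept their calls under every alternative that tested them, in both genotypes, and no called member changed direction. For Cox8c and Cox7b2, which entered the test through their day 0 arrays alone, a call could be a fall only. In wild type the number of members lower at day 6 was 6 with normexp background, 1 when a gene had to be well above background on all 8 arrays, which removes Cox8c and Cox7b2, and 7 with a trended and robust variance. The members' median for the day in wild type was 0.0137 with quantile scaling, 0.018 with a median shift, 0.0083 with normexp and -0.0247 in the deposited values. In R141C the number lower was 1 without the filter, 0 with the filter on all 8 arrays, 4 with the trended and robust variance and 1 with the replicate block, and the number higher was 2 when only the arrays compared were fitted. For the genotypes at day 6 the medians were -0.0015, 0.038, -0.0118 and -0.021 in the same 4 scalings, and for the interaction 0.0157, 0.0063, 0.0013 and 0.0075. Leaving out 1 array at a time gave 1 to 4 members higher and 1 to 3 lower in wild type, with medians from -0.1573 to -0.036. In R141C it gave 1 to 4 higher and 1 to 2 lower, with medians from -0.0831 to 0.1127. At day 6 between genotypes it gave 0 to 0 higher and 0 to 1 lower (Cox6a2, without R141C replicate 2), with medians from 0.0745 to 0.1775. At day 0 it gave 0 calls and medians from -0.0901 to 0.0995, and for the interaction 0 calls and medians from 0.0071 to 0.1859. The replicate block ended the wild-type call of Atp5s (adjusted p = 0.056) and the R141C call of Cox7b2, and it changed no other member's call. Same-numbered day 0 cultures deviated in opposite directions (r = -0.14), and a block with the numbers crossed, added after the data were seen, gave 0 members called. Over all genes, the genotype comparison at day 6 had 17 calls, 0 with the replicate block and 117 without R141C day 6 replicate 2. In wild type without the filter, 5703 genes were higher and 3270 lower, beside 2860 and 3345. Causes of these shifts were not tested. Dim probes limit Cox8b, Cox7b2 and Cox8c, whose day 6 signals lie at background.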
